A study of Danio rerio with 2 samples.

Results

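The genes described here are 7 effector genes of xanthophores, the yellow pigment cells of fish: the sugar transporter genes *slc2a15b* and *slc2a11b*, the organic anion transporter gene *slc22a7a*, the membrane protein genes *tmem130* and *bscl2l*, and the enzyme genes *uraha* and *akr1b1.1*. They are 7 of the 25432 genes in the feature table and 7 of the 18119 genes with at least 50 UMIs (unique molecular identifiers, 1 per captured transcript). They were listed by symbol and chosen by their level in xanthophore-like cells and by their higher level in the mutant library, both measured in these libraries. In the order given, their Ensembl identifiers are ENSDARG00000053269, ENSDARG00000063288, ENSDARG00000056028, ENSDARG00000103789, ENSDARG00000025912, ENSDARG00000100719 and ENSDARG00000006215. Their enrichment in that class and their change over all cells are therefore given as a description, with no test.

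The study asked how *mgat4b*, which encodes an enzyme that adds a branch to *N*-glycans, acts in pigment cell development. Zebrafish embryos were injected with a plasmid in which the *mitfa* promoter drives both Cas9 and GFP. The control embryos carried a guide with no target and the *mgat4b* mutant embryos carried guides against *mgat4b*. GFP-positive cells were sorted at 36 h post fertilization (hpf) and 1 library per group was made with the 10x Genomics 3′ kit. The injected animals themselves were used, so cutting is mosaic and limited to cells in which the *mitfa* promoter is or was active, and an uncut cell cannot be told from a cut one. The number of embryos in a library is not given in the sources used here.

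Xanthophores arise from the neural crest, together with the black melanophores and the silvery iridophores. Their colour comes from pteridines, which are made from GTP by a pathway that opens with GTP cyclohydrolase (*gch2*), and from carotenoids taken up from the diet and kept in lipid. SLC2 proteins move hexoses and related molecules across membranes. In medaka, *slc2a15b* and *slc2a11b* are the genes of 2 pigment mutants that lack or have abnormal xanthophores and leucophores. The SLC22A7 transporters carry organic anions. Seipin, the protein family of *bscl2l*, sits in the endoplasmic reticulum where lipid droplets form, and mutation of human *BSCL2* causes a lipodystrophy. *uraha* encodes 5-hydroxyisourate hydrolase, a step in the breakdown of urate, and *akr1b1.1* an aldo-keto reductase of the aldose reductase type. The role of *tmem130* is little known.

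The control library held 1771 cells that passed the filter, with a median of 4919 UMIs per cell, and the mutant library held 3860 cells with a median of 6480. Of control cells 30.2% had under 1000 UMIs, as did 9.22% of mutant cells. Levels are given as CPM, the UMIs of a gene scaled to a common total of UMIs. *mgat4b* itself was at 80.8 CPM in control and 64.3 CPM in mutant cells, a ratio of 0.796. That sum mixes cell types whose shares differ between the libraries, so it does not measure cutting. Of 25 clusters, 2 took the name xanthophore-like, and all 9 markers of the list were detected in them in both libraries. *mgat4b* was at 11.6 CPM (1 UMI, control) and 15.5 CPM (13 UMIs, mutant) in the first of them. In the second it was at 220.0 CPM (47 UMIs) and 203.1 CPM (312 UMIs). Without the melanin-gene cells described below, the values of the second were 120.5 CPM (25 UMIs) and 199.4 CPM (258 UMIs). The clustering left the 7 genes out of its features. The labels call the cells melanocytes, but no cluster took the name melanophore-like. The libraries shared 2 barcodes, 1 of them among passing cells.

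Over all passing cells, the 7 genes were 2.87 to 5.24 times higher in the mutant library. *slc2a15b* rose from 9.01 CPM (95% interval 7.64 to 10.6, 154 UMIs) to 47.2 CPM (44.8 to 49.7, 1437 UMIs), the largest ratio of the 7 at 5.24 (4.43 to 6.22). *bscl2l* had the smallest ratio at 2.87 (2.57 to 3.21), from 22.6 to 64.8 CPM. Here and throughout, intervals are 95% intervals for counting error alone, because each group had 1 library and the spread between animals is unknown. *slc2a11b* went from 38.6 to 155.7 CPM (ratio 4.03), *slc22a7a* from 51.4 to 186.1 CPM (3.62) and *tmem130* from 27.6 to 126.5 CPM (4.58). *uraha* went from 51.9 to 182.1 CPM (3.51) and *akr1b1.1* from 47.0 to 183.3 CPM (3.90). All 7 exceeded a ratio of 2 with an interval above 1, a rule that 4.09% of all genes met (5.98% met its mirror image downwards). The change was part of the rule that chose the genes, so nothing is read from that count.

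Xanthophore-like cells were 1.69% of the control library (30 cells) and 8.96% of the mutant library (346 cells), and the sort for GFP can set these shares. In a sum over all cells, more cells of a type and more RNA per cell cannot be told apart. Within the class, the summed UMIs of the 7 genes were 0.930 (0.898 to 0.963) of the control level, against 3.81 (3.69 to 3.94) over all cells. The value within the class depended on the processing: it was 1.01 with no cell filter, 1.12 with scaling by trimmed means (TMM), 1.40 at a clustering resolution of 0.07 and 4.0 under a marker gate, which took every cell with at least 3 xanthophore markers. The last 2 values rest on other sets of cells. At that resolution the class held 50 control and 450 mutant cells, against 30 and 346 here, so its value also mixes in other cells. The gate took 97 and 536 cells, with only 28 and 333 of them in the class, so its value mixes in other cells. *gch2*, a reference gene of the class, had a ratio of 4.65 over all cells and 1.06 within the class. It is also a marker by which the class was named, so its level there is in part set by that choice.

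**Figure D1:**
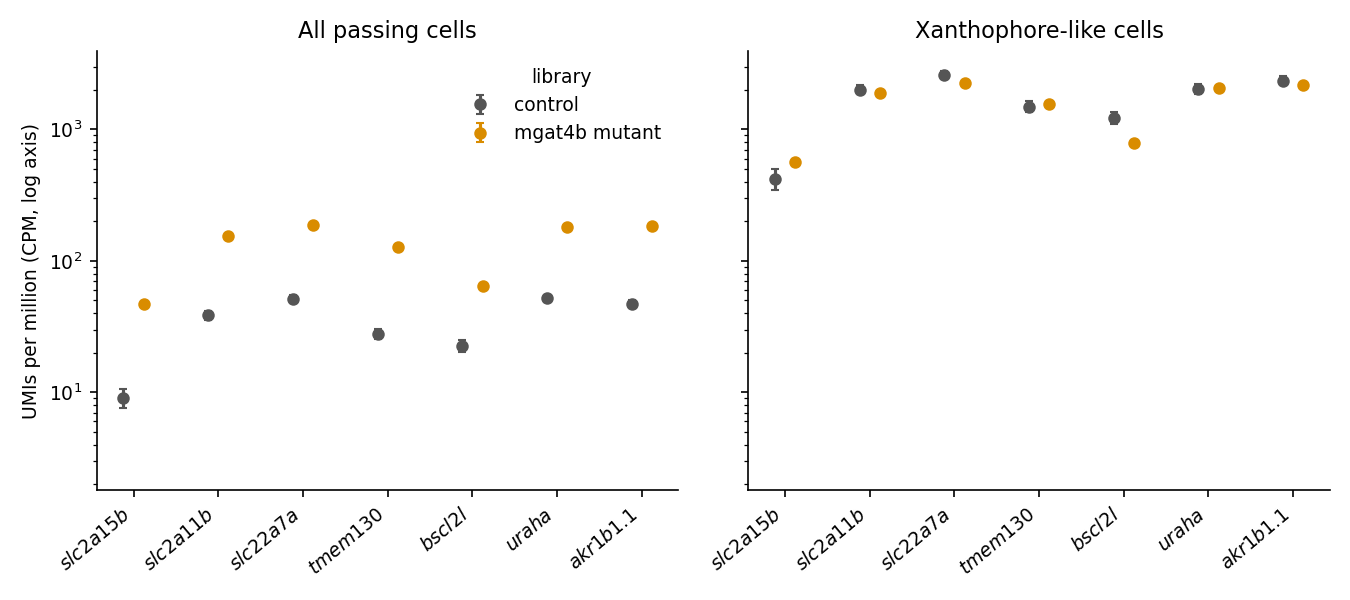
Level of each of the 7 genes in the control (grey) and *mgat4b* mutant (orange) library, in CPM on a log axis, over all passing cells (left) and within xanthophore-like cells (right). Points are 1 library each and bars are exact Poisson 95% intervals. Over all cells every gene is higher in the mutant, by 2.87 to 5.24 times, while within the class the ratios lie between 0.646 and 1.34.

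The genes were concentrated in the xanthophore-like class in both libraries. Of their summed UMIs, 92.0% (91.7 to 92.3) lay in these cells, from 85.2% for *uraha* to 95.7% for *tmem130*. Genes with at least 50% of their UMIs in the class were 0.695% of all genes tested, and the 7 were chosen to be among them. Among the transporters, *slc2a15b* stood at 417.2 CPM (347.2 to 497.0) in control and 560.1 CPM (530.4 to 591.0) in mutant xanthophore-like cells. *slc2a11b* stood at 2009 and 1882 CPM, and *slc22a7a* at 2603 and 2254 CPM. These are levels from 3′ tags, which are not divided by transcript length. The membrane proteins *tmem130* and *bscl2l* reached 1485 and 1228 CPM in control cells and 1554 and 793.0 CPM in mutant cells. The enzymes *uraha* and *akr1b1.1* reached 2029 and 2353 CPM in control cells and 2051 and 2176 CPM in mutant cells.

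In every other named class the same genes were lower. Neural crest-like cells (20 control, 106 mutant), the class nearest in origin, held between 0 and 5.62 CPM of each gene in the control and between 0 and 9.14 CPM in the mutant. *slc2a11b* gave the 9.14 CPM, from 10 UMIs in 7 of 106 cells. Neuron-like cells, which should lack the genes, held at most 11.6 CPM in the control, the value of *slc22a7a*. In the mutant neuron-like cells *akr1b1.1* came to 108.0 CPM, but 102 of its 162 UMIs sat in 1 cell. The unnamed clusters, with 915 control and 1119 mutant cells, held 0.636 to 7.21 CPM of each gene in the control and 2.36 to 13.3 CPM in the mutant.

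**Figure D2:**
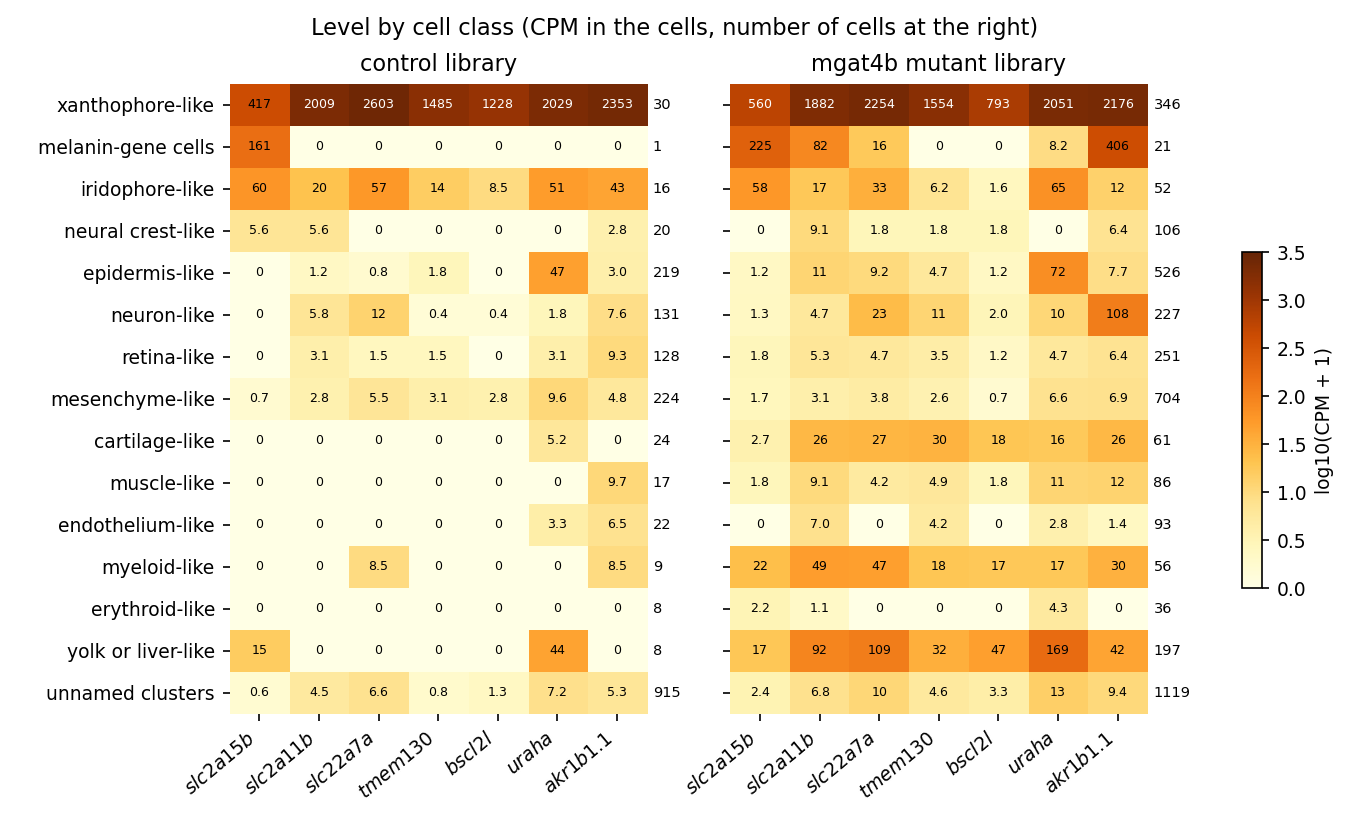
Level of the 7 genes (columns) by cell class (rows) in the control (left) and *mgat4b* mutant (right) library, printed in CPM and coloured by log10(CPM + 1), with the number of cells beside each row. Melanin-gene cells, described below, are also counted in the xanthophore-like row. The top row is darkest for all 7 genes, and among the rows below the melanin-gene cells *slc2a15b* stands out in iridophore-like cells and *uraha* in iridophore-like, epidermis-like and yolk or liver-like cells of both libraries.

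Most xanthophore-like cells carried several of the 7 transcripts at once. Before any adjustment for depth, all 7 were detected in 60.0% of control and 58.7% of mutant xanthophore-like cells, with median depths of 6384 and 4862 UMIs. When each cell was thinned to 836 UMIs, at least 5 of the 7 were detected in 71.4% (51.3 to 86.8) of the 28 control cells left and in 62.3% (56.8 to 67.6) of the 329 mutant cells left. In thinned neuron-like cells, whose median depth was 6306 UMIs before thinning, at least 1 of the 7 was detected in 1.55% of 129 cells from the control and 5.33% of 225 cells from the mutant. No thinned neuron-like cell had 3 or more, which by a limit of 3 counts allows a share of up to 2.33% in the control and 1.33% in the mutant. The genes were chosen for their level in the class, so a higher detection there was fixed by the choice. Neuron-like cells are also no pure measure of free RNA. Without thinning, 1 of 227 mutant neuron-like cells had all 7 genes, and 2 of 145 had at least 3 when thinned to 4919 UMIs.

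Single genes differed in how many cells carried them. Among thinned xanthophore-like cells, *slc2a15b* was found in 42.9% (24.5 to 62.8) of those from the control and 34.0% (28.9 to 39.4) of those from the mutant, against 0% and 0.444% of neuron-like cells. Without thinning its shares were 70.0% and 75.1%. *bscl2l* was found in 64.3% (44.1 to 81.4) and 46.8% (41.3 to 52.4), and in 86.7% and 78.0% without thinning. The other 5 genes were each found in between 70.8% and 89.3% of thinned cells of the class, and all 7 genes in at most 1.78% of thinned neuron-like cells. The control and mutant intervals of these shares overlapped for every gene.

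**Figure D3:**
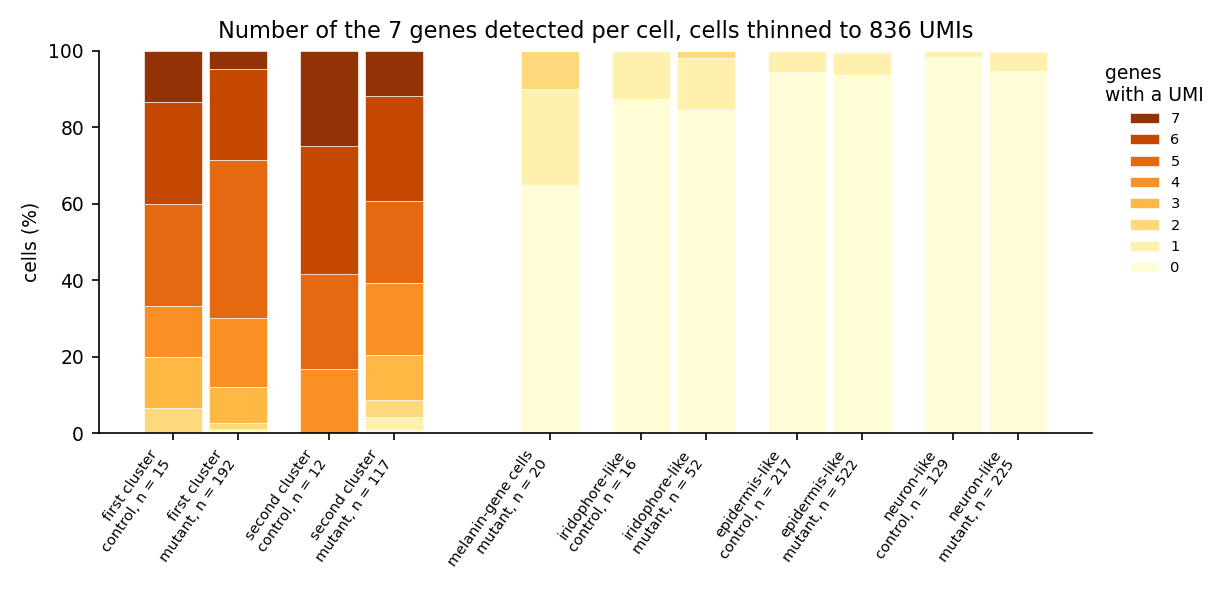
Share of cells (percent, bars from 0 to 100) by how many of the 7 genes had a UMI, after each cell was thinned to 836 UMIs. The first and second xanthophore-like clusters are shown without melanin-gene cells, with n cells under each bar. The median is 5 or 6 genes in the xanthophore-like bars, and 0 genes is the commonest count in melanin-gene, iridophore-like, epidermis-like and neuron-like cells.

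The class consisted of a pair of clusters in which the 7 genes did not stand in the same proportions. The first cluster (17 control, 209 mutant cells) had a median depth of 3370 UMIs and was led by *uraha*, *gch2*, *akr1b1.1* and *tmem130*, with 34.9 CPM of the proliferation gene *mki67* in the control and 54.9 in the mutant. The second (13 and 137 cells) had a median depth of 11220 UMIs, was led by genes that include *aox5*, *slc2a15a*, *slc2a11b*, *slc2a15b* and *bscl2l*, and had 9.36 and 17.6 CPM of *mki67*. In the control, 3 UMIs make 34.9 CPM in the first cluster and 1 UMI makes 4.68 CPM in the second. The control values of *mki67* thus rest on very few UMIs, and no difference is read from them. The ratios between the clusters are a description, since the cells were sorted into them by their expression.

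The sugar transporters were higher in the second cluster. *slc2a15b* stood at 232.6 CPM in the first and 491.4 CPM in the second control cluster, a ratio of 2.11 (1.3 to 3.60), and at 337.5 and 681.6 CPM in the mutant, a ratio of 2.02 (1.77 to 2.31). *slc2a11b* gave 1.57 (1.28 to 1.93) in the control and 1.3 (1.22 to 1.38) in the mutant. In CPM the enzymes went the other way in both libraries. *uraha* stood at 3024 CPM in the first and 1629 CPM in the second control cluster, a ratio of 0.539 (0.457 to 0.635), and at 3132 and 1461 CPM in the mutant, a ratio of 0.467 (0.441 to 0.494). *akr1b1.1* gave 0.652 (0.559 to 0.762) and 0.649 (0.614 to 0.686). Cells of the second cluster were deeper, and in UMIs per cell the enzymes were higher there. The median of *uraha* was 12 UMIs in the first and 29 in the second control cluster, and 10 and 15 in the mutant. For *akr1b1.1* it was 15 and 35 UMIs in the control, and 10 and 19 in the mutant.

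For the remaining genes the libraries were less alike. *slc22a7a* gave 1.13 (0.961 to 1.33) in the control and 0.784 (0.742 to 0.828) in the mutant, *tmem130* 1.03 (0.835 to 1.28) and 0.672 (0.629 to 0.717), and *bscl2l* 1.12 (0.888 to 1.43) and 1.33 (1.21 to 1.48). Without the melanin-gene cells described below, *slc22a7a* gave 1.16 and 0.927, *tmem130* 1.06 and 0.795, and *bscl2l* 1.16 and 1.58. The libraries were then closer for *slc22a7a* and *tmem130*, and farther apart for *bscl2l*. Pteridine genes were split in the same 2 ways. *gch2* (0.724 and 0.663) and *pts* (0.688 and 0.689), which act at the start of the pathway, were lower in CPM in the second cluster. The median UMIs of *gch2* per cell were higher there, at 398 against 135 in the control and 300 against 147 in the mutant. *aox5*, an aldehyde oxidase gene used as a xanthophore marker, was higher (1.66 in both libraries). *slc2a15a*, the paralog of *slc2a15b*, had ratios of 3.98 and 2.41.

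By a rule of at least 1.5-fold in both libraries, 1 of the 7 genes (*slc2a15b*) was above in the second cluster, where 41.6% of all genes tested were, and 2 (*uraha* and *akr1b1.1*) were below, where 3.45% were. The share above was thus under the background for the 7 genes. The rule sets no limit on counting error. The level of *slc2a11b* met it in the control only. Without cells that held more UMIs of melanophore than of xanthophore markers, *slc2a11b* met it in both libraries (1.61 and 1.53), *akr1b1.1* no longer did (0.672 and 0.743), and *slc2a15b* and *uraha* still did. The shares of all genes are not given without those cells, so nothing is read from these calls.

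**Figure D4:**
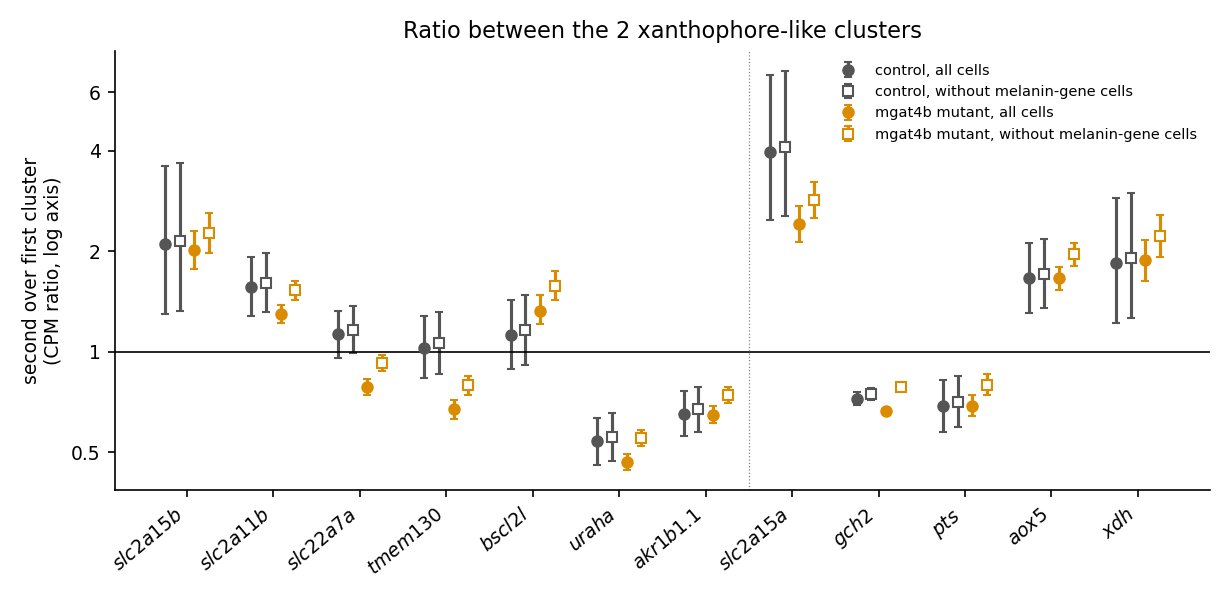
Ratio of the second over the first xanthophore-like cluster (CPM, log axis) for the 7 genes and, right of the dotted line, 5 reference genes, in the control (grey) and mutant (orange) library. Circles use all cells, squares leave out melanin-gene cells, and bars are exact 95% intervals. *slc2a15b* and *slc2a11b* lie above 1 and *uraha* and *akr1b1.1* below 1 in both libraries with either set of cells.

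Most cells of the second cluster that had few of the 7 transcripts had melanin genes instead. In that cluster 25 mutant cells and 1 control cell had at most 3 of the 7 genes, without thinning. Of these, 18 and 1 held more UMIs of the 10 melanophore markers than of the 9 xanthophore markers. In all, 1 control and 21 mutant cells of the class met this condition, which was set after the values had been seen. They are called melanin-gene cells here and given no cell type. They made up 13.9% (8.56 to 20.8) of the second cluster in the mutant and 7.69% (0.195 to 36.0), 1 of 13 cells, in the control. Of all mutant cells of that cluster, 4 lay within 2-fold of equal UMIs of both marker lists, on either side. Melanophore markers summed to 8569 CPM and xanthophore markers to 1323 CPM in the mutant melanin-gene cells. These cells held between 5.39% (*mlpha*) and 89.6% (*tyrp1b*) of the mutant library's UMIs of each of the 10 melanophore markers. The control cell held 8.64% of the *dct* and 16.0% of the *tyrp1b* UMIs of its library, and also 48514 CPM of epidermis markers. Neural crest-like cells held 66.7% and 62.7% of the UMIs of these genes in the control, against 6.37% and 0.797% in the mutant. The condition was applied to the xanthophore-like class alone. The 1 and 21 cells are therefore not all cells with melanin genes in each library.

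The 7 genes separated in the 21 mutant melanin-gene cells. *slc2a15b* was found in 16 of 21 cells, with 55 UMIs or 225.3 CPM (169.7 to 293.2). *akr1b1.1* was also found in 16 of 21, with 99 UMIs or 405.5 CPM (329.6 to 493.7). *slc2a11b* was found in 8 of 21, at 81.9 CPM. By contrast *slc22a7a* and *uraha* were each found in 1 cell, with 4 and 2 UMIs, and *tmem130* and *bscl2l* had no UMI, which by the same limit of 3 counts allows up to 12.3 CPM. *slc2a15a* had no UMI either.

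The level of *gch2* was 831.5 CPM in these cells. There were 270.9 UMIs of *slc2a15b* per 1000 *gch2* UMIs in the melanin-gene cells and 16.9 in all mutant xanthophore-like cells. The values for *akr1b1.1* were 487.7 and 65.8, and for *slc2a11b* 98.5 and 56.9. *gch2* is among the xanthophore markers by which these cells were picked, so a low *gch2* level was built into the choice. The higher ratios to *gch2* follow from it. In CPM each of these genes was lower in melanin-gene cells than in all mutant xanthophore-like cells (560.1, 2176 and 1882 CPM in the latter). Of the *gch2* UMIs of the melanin-gene cells, 45.8% were in 1 cell. Thinned to 836 UMIs, 13 of 20 melanin-gene cells had none of the 7 genes, 5 had 1 and 2 had 2.

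Outside the xanthophore-like class, both *slc2a15* paralogs were detected in iridophore-like cells, the class of the silvery pigment cells (16 control, 52 mutant). *slc2a15b* was found in 10 of 16 control cells, at 59.7 CPM (36.9 to 91.2), and in 23 of 52 mutant cells, at 57.6 CPM (40.6 to 79.4). *slc2a15a* was at 170.5 and 183.7 CPM, in 13 of 16 and 39 of 52 cells. Per 1000 *gch2* UMIs, *slc2a15b* gave 128.0 in the control and 973.7 in the mutant, against 13.4 and 16.9 in xanthophore-like cells. In the control, 93.3% of the *gch2* UMIs of this class were in 1 cell. *slc22a7a* reached 56.8 and 32.7 CPM, but in 2 of 16 and 7 of 52 cells. *bscl2l* had 3 UMIs in 1 control cell and 1 UMI in the mutant.

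*uraha* had the widest distribution of the 7. In 1 of 2 epidermis-like clusters, led by genes that include *agr1*, *anxa1c* and *icn2*, it was present in 54 of 92 cells of the control at 96.7 CPM (83.0 to 111.9) and in 133 of 219 cells of the mutant at 135.7 CPM (121.3 to 151.2). In the other epidermis-like cluster it was at 4.18 and 11.5 CPM. *gch2* in the former cluster was at 11.9 and 30.4 CPM, so *uraha* outnumbered it there, whereas in xanthophore-like cells there were 65.3 and 62.0 *uraha* UMIs per 1000 of *gch2*. Cells of a yolk or liver-like cluster held 38 *uraha* UMIs in 13 of 29 mutant cells, or 564.4 CPM (399.4 to 774.6), and 3 UMIs in 1 of 2 control cells. Urate oxidation is a known activity of liver. The larger yolk or liver-like cluster, with a median depth of 989 UMIs and 168 mutant cells, held *slc22a7a* at 125.3 CPM in 29 cells. In that cluster 4 mutant cells had at least 5 of the 7 genes, and these also had at least 3 xanthophore markers. The part of such cells in this level was not tested. Over both clusters there were 139.7 *slc22a7a* UMIs per 1000 of *gch2* in the mutant, against 68.1 in xanthophore-like cells.

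*slc22a7a* showed a low level in neuron-like cells of the control, with 26 UMIs in 20 of 131 cells, more than the 19 UMIs of *gch2* there. In the same cells *akr1b1.1* had 17 UMIs in 13 cells and *slc2a15b* none. In mutant neuron-like cells *slc22a7a* had 35 UMIs in 17 of 227 cells beside 246 UMIs of *gch2*. After thinning, a *slc22a7a* UMI remained in 0.775% of neuron-like cells from the control and 0.889% from the mutant, so at this depth the level was hardly detectable.

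Within xanthophore-like cells the mutant and control libraries were compared gene by gene. None of the 7 reached a 2-fold difference in either direction, where 3.65% of the 7758 genes tested were higher and 6.65% lower. The median ratio of the 7 was 0.937 (log2 -0.10), beside a median log2 ratio of -0.03 over all genes tested. Over all passing cells the corresponding medians were 3.90 (log2 1.96) and log2 -0.15. TMM scaling moved that median of all genes to 0.00, and left all 7 genes higher over all cells.

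*bscl2l* showed the largest difference within the class. Its control level was 1228 CPM (1106 to 1360, 368 UMIs) and its mutant level 793.0 CPM (757.6 to 829.6, 1883 UMIs), a ratio of 0.646 (0.577 to 0.724). The median over cells went from 1279 CPM in control cells to 661.7 CPM in mutant cells. The ratio was below 1 in the first cluster, at 0.578 (0.465 to 0.725), and in the second, at 0.686 (0.601 to 0.784). Without the melanin-gene cells it was 0.705 (0.630 to 0.790). With the clusters of resolution 0.07, where the class took in 50 control and 450 mutant cells, it was 0.974 (0.870 to 1.09).

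*slc2a15b* was higher in the mutant class, with a ratio of 1.34 (1.12 to 1.63), 1.45 (0.922 to 2.41) in the first cluster and 1.39 (1.13 to 1.71) in the second. Its median over cells was 299.9 CPM in control and 341.8 CPM in mutant cells, and its ratio as a mean of per-cell CPM was 1.12. Its control level rests on 125 UMIs in 21 of 30 cells, with 12.8% of them in 1 cell. *slc22a7a* was lower, at 0.866 (0.803 to 0.935). That ratio was 0.763 (0.698 to 0.836) in the second cluster and 1.1 (0.952 to 1.27) in the first, and 0.944 (0.876 to 1.02) over the class without the melanin-gene cells.

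The other 4 genes lay near 1 in the cells as clustered here. At a resolution of 0.07 they ranged from 1.39 (*akr1b1.1*) to 1.58 (*tmem130*) and under the marker gate from 3.96 (*akr1b1.1*) to 4.57 (*tmem130*). Both of those sets took in cells outside the class, so their values are not ratios within it. Within the class *slc2a11b* was at 0.937 (0.860 to 1.02), *tmem130* at 1.05 (0.948 to 1.16), *uraha* at 1.01 (0.929 to 1.1) and *akr1b1.1* at 0.925 (0.855 to 1.0). Without the melanin-gene cells *tmem130* was at 1.14 (1.04 to 1.26) and *uraha* at 1.1 (1.01 to 1.2), and the sum of the 7 was at 1.01 (0.974 to 1.04).

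Markers of other cells moved with this comparison. In xanthophore-like cells epidermis markers summed to 5560 CPM in the control, with *krt17* and *tp63* at 0 and 16 of 18 detected, and to 1939 CPM in the mutant with 18 of 18 detected. Mesenchyme markers summed to 764.2 CPM (4 of 13 detected) and 131.0 CPM (10 of 13), otic markers to 984.5 CPM (5 of 8) and 21.5 CPM (3 of 8), and melanophore markers to 1068 CPM (8 of 10) and 1778 CPM (10 of 10). A single control cell of 45383 UMIs, from the second cluster, was the deepest of the class. For each gene a single control cell held between 9.38% and 14.0% of the UMIs of the control class. The part of these RNAs in the ratios was not tested, beyond the value of the sum without the cell that held the most UMIs of the 7 genes in each library, which was 0.915.

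**Figure D5:**
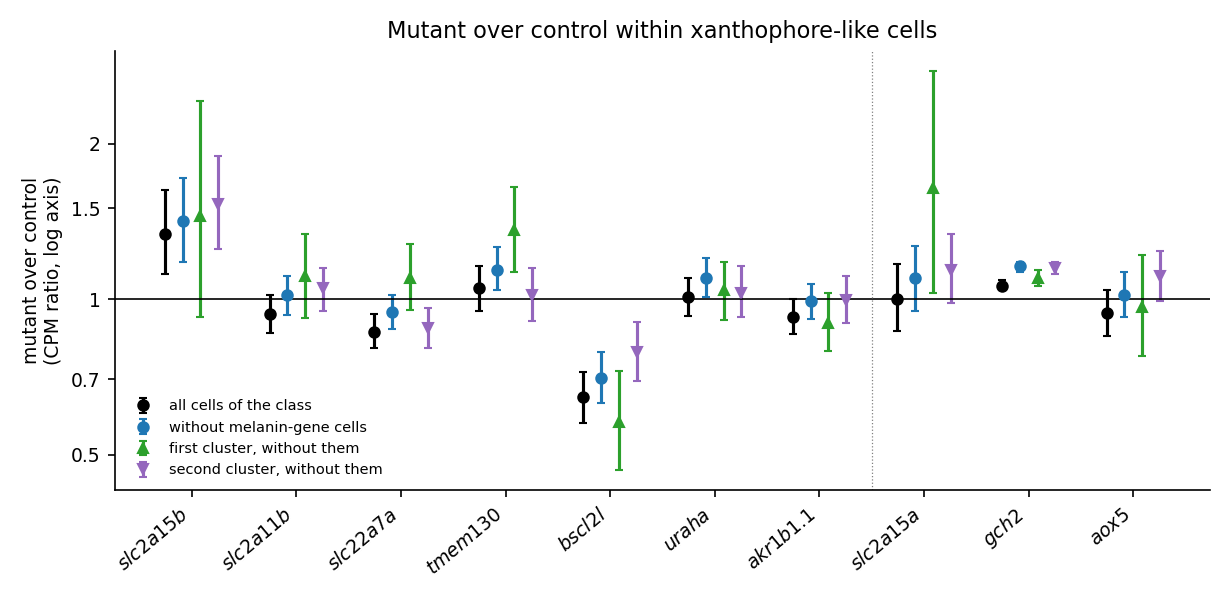
Mutant over control ratio within xanthophore-like cells (CPM, log axis) for the 7 genes and, right of the dotted line, 3 reference genes. Black circles use all cells of the class, blue circles leave out melanin-gene cells, triangles show the first (up) and second (down) cluster without them, and bars are exact 95% intervals for counting error. *bscl2l* is below 1 and *slc2a15b* above 1 in each of the 4 sets, and the interval of *slc2a15b* includes 1 in the first cluster.

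Paralogs of the 7 genes were nearly silent in the class, apart from 1. *slc2a15a* was at 690.8 CPM (207 UMIs) in control and 693.2 CPM (1646 UMIs) in mutant xanthophore-like cells, a ratio of 1.0 (0.868 to 1.17). *slc2a11a*, *slc2a11l*, *slc22a7b.1*, *slc22a7b.2* and *slc22a7b.3* had no UMI there, *bscl2* had 1 in each library, *urahb* had 4 in the mutant and *akr1b1.2* had 1 in the mutant. In the RefSeq annotation of GRCz12tu, which is not the build of the counts, *akr1b1.1* lies beside *akr1b1.2* on chromosome 4. *slc2a15b* lies beside *lbx1b* and *fgf8b* on chromosome 1, and *slc2a15a* beside *lbx1a* and *fgf8a* on chromosome 13. Reads shared between such copies can be lost or assigned to 1 of them, so the values of *slc2a15a*, *slc2a15b* and *akr1b1.1* carry that uncertainty.

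The other genes of the same families are given here against all genes tested over all cells, of which 4.09% were at least 2-fold higher and 5.98% lower. Of 11 other *slc2a* genes tested, 2 were at least 2-fold higher over all cells and 1 was lower. The higher ones were *slc2a15a* (3.82) and *slc2a6* (3.33), the latter with 0.200% of its UMIs in xanthophore-like cells, and the lower one was *slc2a1a* (0.140). Of 8 other *slc22* genes, *slc22a6l* was higher (3.53, 51 UMIs in all) and none lower, and none had 50% of its UMIs in the class. Of 11 other seipin and lipid droplet genes, 2 were higher, *plin6* and *fitm1l* (2.32), and none lower. *plin6*, a perilipin that coats lipid droplets, rose 3.95-fold (3.34 to 4.69) over all cells, with 88.0% of its UMIs in the class, and within the class its levels were 390.5 CPM (control) and 424.1 CPM (mutant). *fitm1l* had 0% of its UMIs there.

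Of 12 other urate and purine genes, *xdh*, the gene of xanthine dehydrogenase, was higher (3.64, with 94.0% of its UMIs in the class) and *pnp6* was lower (0.446). Of 11 other aldose reductase and polyol genes, none passed in either direction. The pteridine list, which holds none of the 7, had 7 of 13 genes higher (*gch2*, *pts*, *sprb*, *xdh*, *aox5*, *pcbd1* and *qdpra*) and none lower. The same 7 of 13 had at least 50% of their UMIs in the class. Of these, *gch2*, *pts*, *sprb*, *xdh* and *aox5* are also markers by which the class was named. Their place in it, and that of *xdh* in the urate and purine list, is therefore no separate finding. The median log2 ratios of the lists over all cells were 1.11 for pteridine synthesis and -0.17, 0.19, 0.13, 0.21 and 0.05 for the others, in the order given here, beside -0.15 over all genes. The lists were made with earlier results of these libraries known.

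The pattern across classes was compared with that of every gene tested, as the Pearson correlation of log2(CPM + 5) with the mean of the 7 genes over 23 points, each a class in a library. The points share libraries and depth, so the values are a description. Outside the 7 genes the highest were *pts* (0.987), *aox5* (0.986), *cax1* (0.980), *si:dkey-251i10.2* (0.973) and *xdh* (0.967). They were followed by *cyb561a3b* (0.962), *CABZ01021592.1* (0.960), *oacyl* (0.960), *tmem243a* (0.956) and *CABZ01058222.1* (0.951). Of these genes, *pts*, *aox5* and *xdh* are markers by which the class was named. The 7 genes themselves ranged from 0.936 for *slc2a15b* to 0.988 for *slc22a7a*, but each is part of that mean and was chosen for its level in the class. Across single cells, Spearman correlations of CPM were taken for the 21 pairs, both libraries together and without melanin-gene cells. They lay between -0.14 and 0.35 (median 0.12) in the first cluster and between 0.07 and 0.60 (median 0.36) in the second. This is another measure over other units, so it is not set against the values across classes. Counts per cell were low, and cells of a pair share their depth.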

How the data were processed

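Deposited UMI counts per gene and barcode, made by the authors with Cell Ranger 7.2.0 against GRCz11, were used as whole numbers with no normalization. Cells with more than 200 genes and under 5% mitochondrial UMIs were kept. The libraries were integrated (2000 features, 30 dimensions) and clustered (13 dimensions, resolution 1) in Seurat 5.3.0 (R 4.3.3), with the 7 genes removed from the features. Clusters were ranked by fold over all other cells (prior of 5 CPM, genes found in 25% or more of the cluster), took the class name with most of its markers in the top 50 genes, needed 3 markers, and stayed unnamed on a tie in the top 10. UMIs were summed over cells and scaled to CPM, with exact Poisson, conditional binomial (ratios) and Clopper-Pearson (shares) intervals at the 95% level. No test was run, since each group had 1 library. Shares of cells were taken after thinning to 836 UMIs, which left out 441 control and 275 mutant cells, and to 4919 UMIs. Within the class, genes needed 20 UMIs in all. Doublets were kept, and an alternative left out the 25 control and 119 mutant cells with the highest scores of Scrublet (scanpy 1.11.5) at 0.8% per 1000 cells. Another used TMM factors (edgeR 4.0.16).

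The 7 genes and all lists were chosen with earlier results of these data known. The genes named were the 7, *mgat4b*, reference pigment genes, paralogs by symbol, list genes concentrated in the class or past the 2-fold rule, and the 10 genes of most similar pattern. *mki67*, *tyrp1b*, *dct* and the genes that lead clusters were named after their values were seen. The listed symbols *plin3*, *fitm1*, *lpin1a*, *abhd5a*, *pcbd2* and *qdprb2* were not matched in the feature table. The 2-fold rule was checked on simulated counts, but the outcome is not given here and nothing is read from it. No coordinates of the counts' build were used.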

Additional observations from a re-analysis of the deposited data

Results flagged for a closer look

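*tmem130* was higher in the mutant in the first xanthophore-like cluster, with a ratio of 1.36 (1.13 to 1.64), and lower in the second, with a ratio of 0.885 (0.786 to 0.999). The opposite directions drew attention to it, and the difference between the clusters was not tested. Without the melanin-gene cells the second ratio was 1.02 (0.906 to 1.15).

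Barcodes that failed the cell filter, which enter only the values given with no cell filter, also held UMIs of the 7 genes. There were 149 in 152 control barcodes and 414 in 260 mutant barcodes, or 360.2 and 707.1 CPM, a mutant over control ratio of 1.96 (1.62 to 2.38).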

How the results depend on the processing

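The sum of the 7 genes over all cells (ratio 3.81) was 4.12 without the cell with most of their UMIs in each library, 4.23 with TMM factors, 3.99 with totals without mitochondrial and ribosomal protein genes, and 4.58 as a mean of per-cell CPM. All 7 genes also passed the 2-fold rule with TMM factors, with which 5.41% of all genes were higher. The other alternatives to that rule, at least 20 UMIs or a ratio of at least 1.5, were looser and could only keep all 7. The genes were chosen for this change, so nothing is read from these counts. The sum within xanthophore-like cells (0.930) lies close to 1 and its direction depends on the choices. It was 1.01 with no cell filter, with a filter of over 500 genes, with the 7 genes among the clustering features and without melanin-gene cells, the last an alternative chosen after seeing the data. It was 1.12 with TMM factors, which put the median log2 ratio of all genes in the class at 0.23. It was 1.40 at resolution 0.07, where the class took in other cells and held 50 control and 450 mutant cells. It was 4.0 under a gate of at least 3 xanthophore markers, which took 97 control and 536 mutant cells, 28 and 333 of them in the class. It was 0.977 with totals without mitochondrial and ribosomal protein genes and 0.966 as a mean of per-cell CPM. *slc22a7a* within the class (0.866) turned to 1.01 with no cell filter, 1.31 at resolution 0.07, 3.71 under the gate, and 1.04 with TMM factors and as a mean of per-cell CPM. *bscl2l* turned only under the gate (2.82) and otherwise ranged from 0.544 to 0.974, and *slc2a15b* outside the gate from 1.12 to 1.99. The share of UMIs in the class (92.0%) was 83.5% with no cell filter, 91.7% over 500 genes, 92.4% in cells of at least 1000 UMIs, 92.7% without high doublet scores, 91.5% with mutant cells drawn down, 91.6% with the 7 genes among the features and 94.9% under the gate. Where no cause is given, it was not tested. No paired analysis was possible because each group had 1 library. The 30 control xanthophore-like cells limit every comparison within the class.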

Other observations

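Outside the xanthophore-like class, 2 control and 20 mutant cells had at least 5 of the 7 genes. All of them also had at least 3 of the 9 xanthophore markers, and they held 2.50% and 2.36% of the UMIs of the 7 genes in their libraries. In myeloid-like cells of the mutant, *slc2a11b* was at 48.7 CPM (34.8 to 66.3), with 40 UMIs in 2 of 56 cells.

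The lipase gene *lipeb*, picked out after its values were seen, differed more between the libraries within xanthophore-like cells than any of the 7 genes, from 73.4 CPM (control) to 173.5 CPM (mutant), a ratio of 2.36 (1.54 to 3.81), and over all cells it had 36.1% of its UMIs in the class. Of the 7758 genes tested in the class, 3.65% were at least 2-fold higher and 6.65% lower, so nothing is read from this choice. *si:dkey-251i10.2*, whose pattern across classes was among the 10 most like the 7 genes, stood at 5179 CPM in control and 1480 CPM in mutant xanthophore-like cells.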
